A study of Mus musculus with 10 samples.

Results

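Protein phosphatase 2A (PP2A) is a serine/threonine phosphatase whose messenger RNAs were followed here through 10 subunit genes, of 22948 genes with a RefSeq transcript in the short-read files. The members were 2 catalytic genes (Ppp2ca and Ppp2cb), 2 scaffold genes (Ppp2r1a and Ppp2r1b), 2 regulatory genes of the B55 family (Ppp2r2a and Ppp2r2d) and 4 of the B56 family (Ppp2r5a, Ppp2r5c, Ppp2r5d and Ppp2r5e). The set was chosen by subunit role and selected on measured values of these data, the short-read levels and the number of long-read isoforms, so those values are given as a description and carry no test. A gene's short-read level is the sum of its RefSeq transcripts and of assembled spliced transcripts that shared an intron with that gene alone. A gene's long-read isoforms are the rows of each long-read table that carry its name. All 10 members were measured in short reads, 8 had a long-read isoform in CD8SP cells and 5 in CD4SP cells.

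The cells were mature CD8 single-positive (CD8SP) and CD4 single-positive (CD4SP) thymocytes of C57BL/6 mice aged 6 to 8 weeks, with no transgene or treatment named in the labels. CD8SP cells are committed to the cytotoxic lineage and CD4SP cells to the helper lineage. Each sample held thymi of 2 or 3 mice, from which magnetic beads removed cells with the other coreceptor before flow sorting of TCRβ-positive, CD24-negative cells. Each lineage had 1 PacBio long-read library and 1 set of Illumina short reads from rRNA-depleted total RNA, run on 4 lanes and given as 1 value per transcript. There is therefore 1 value per lineage and no replicate, and no p-value is given. The sources used here give no read totals.

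PP2A works as a trimer. The scaffold subunit, built of repeated helices, holds the catalytic subunit and 1 regulatory subunit, and the regulatory subunit decides which phosphoproteins the enzyme meets. B55 forms are known for reversing cyclin-dependent kinase phosphorylation when cells leave mitosis, and B56 forms bind short motifs in their partners, with roles at kinetochores and in growth signalling. In T cells, PP2A is known to act on kinases and transcription factors downstream of the antigen receptor.

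Most long-read isoforms of the members came from Ppp2r5c, which encodes the B56 gamma subunit. Its reading frame can end in different tails, and the pieces that tell its isoforms apart are printed because the isoform results below turn on them. The sequences are the coding strand of mouse build GRCm38, plus strand of chromosome 12, read from GENCODE transcripts, and exons are numbered as in the GENCODE transcript Ppp2r5c-201, which has 14 exons. Capitals mark stop codons.

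Exon 6, 60 bases at chr12:110551062-110551121, which some long-read isoforms leave out in frame:
Ppp2r5c exon 6: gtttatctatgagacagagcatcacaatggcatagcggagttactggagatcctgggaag
The proximal tail, 33 bases at chr12:110570769-110570801, is the last coding stretch when exon 12 is not spliced onward and the transcript ends there:
Ppp2r5c proximal tail: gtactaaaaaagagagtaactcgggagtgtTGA
Exon 13, 117 bases at chr12:110574745-110574861, is a cassette exon of 39 codons:
Ppp2r5c exon 13: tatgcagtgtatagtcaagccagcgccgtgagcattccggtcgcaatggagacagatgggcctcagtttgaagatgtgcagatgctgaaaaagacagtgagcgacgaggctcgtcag
A further cassette exon at chr12:110578101-110578168, 68 bases long, brings a stop codon into the frame, and its first 48 bases, at chr12:110578101-110578148, are its coding part:
Ppp2r5c stop exon, coding part: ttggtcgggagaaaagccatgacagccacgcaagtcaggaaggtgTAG
The distal tail, 132 bases at chr12:110580401-110580532, ends the frame of transcripts that run to the last exon:
Ppp2r5c distal tail: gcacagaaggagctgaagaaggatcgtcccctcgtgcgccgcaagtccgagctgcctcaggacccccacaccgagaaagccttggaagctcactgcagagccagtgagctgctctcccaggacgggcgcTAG

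The levels of the sorted lineages' own markers followed the labels. Cd4 stood at 1.69 FPKM in CD8SP cells and 107 FPKM in CD4SP cells, where FPKM is the number of fragments divided by transcript length and by library size. Cd8a stood at 241 FPKM in CD8SP cells and 10.9 FPKM in CD4SP cells. A call needed 3 things of a gene: an FPKM of 1 or more in the higher lineage, a log2 ratio of (FPKM + 0.1), CD8SP over CD4SP, of 1 or more in size, and deposited intervals that stayed apart once summed over transcripts. By that rule all 4 cytotoxic markers were higher in CD8SP cells and all 4 helper markers higher in CD4SP cells. Of 4 cycling markers, 3 were called higher in CD8SP cells (Top2a, Mcm3 and Rrm2). The summed level of all 4 was 106 FPKM in CD8SP cells and 40.7 FPKM in CD4SP cells. Of 4 immature-thymocyte markers, Rag1 was called, at 4.12 FPKM in CD8SP cells and 12.5 FPKM in CD4SP cells. Of 4 B-cell markers, Cd79b was called higher in CD8SP cells, while Cd79a was at 0 in both lineages. Among the myeloid and red-cell markers, H2-Ab1 and Hba-a2 were called lower in CD8SP cells, at no more than 1.56 FPKM in either lineage. The part of these differences in the members' values was not tested.

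No PP2A subunit was called between the lineages. The count was 0 of 10, beside 14.8% of the 9615 genes tested by the same rule, 9.99% higher and 4.76% lower in CD8SP cells. The members' median log2 ratio was 0.15, and that of all genes tested was 0.22. The log2 ratio was above 0 for 8 members and below 0 for 2, Ppp2r2a and Ppp2r5e. Since the median of all genes was itself above 0, the libraries were also scaled: dividing the CD8SP values by 1.16, which sets the median log2 ratio of 8698 genes at 1 FPKM or more in both lineages to 0, takes 0.22 off each log2 ratio at moderate or high levels. With that scaling 5 members were above 0 and 5 below, and Ppp2ca, Ppp2r1b and Ppp2r5c changed sign.

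The summed intervals did not overlap for 6 of 10 members, beside 54.6% of all genes tested. These intervals are Cufflinks' own, describe the estimate within 1 pooled set of reads and say nothing of the spread between mice. For Ppp2cb, Ppp2r1b and Ppp2r5d a value also lay outside its own interval in at least 1 lineage. Levels come from bulk RNA, in which fewer cells of a type and less RNA per cell cannot be told apart.

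**Figure D1:**
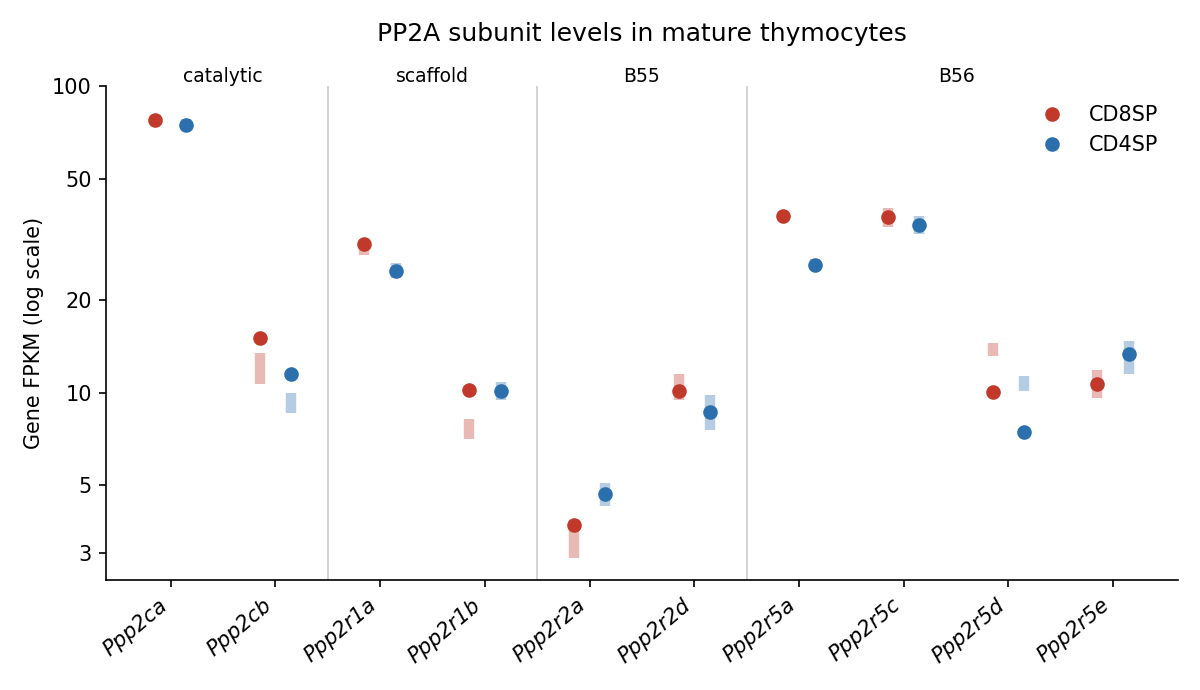
Gene FPKM of the 10 PP2A subunits on a log axis, CD8SP (red) left of CD4SP (blue), with 1 pooled value per lineage (points) and the summed deposited interval (pale bars). Ppp2ca stands highest, at 77.5 FPKM in CD8SP cells and 74.6 FPKM in CD4SP cells, Ppp2r2a lowest, at 3.70 FPKM in CD8SP cells and 4.67 FPKM in CD4SP cells, and the points of Ppp2cb, Ppp2r1b in CD8SP cells, and Ppp2r5d lie outside their bars.

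In order of level the CD8SP values ran Ppp2ca, Ppp2r5a, Ppp2r5c, Ppp2r1a, Ppp2cb, Ppp2r5e, Ppp2r1b, Ppp2r2d, Ppp2r5d and Ppp2r2a. The CD4SP values ran Ppp2ca, Ppp2r5c, Ppp2r5a, Ppp2r1a, Ppp2r5e, Ppp2cb, Ppp2r1b, Ppp2r2d, Ppp2r5d and Ppp2r2a. Intervals of the neighbours Ppp2r5a and Ppp2r5c overlapped in CD8SP cells, as did those of Ppp2cb and Ppp2r5e. In CD4SP cells those of Ppp2r5a and Ppp2r1a overlapped, and that of Ppp2r1b overlapped with those of Ppp2cb and Ppp2r2d. The CD4SP interval of Ppp2r5d, 10.1 to 11.4, lay above those of Ppp2cb and Ppp2r2d although its FPKM was lower than theirs. Both orders are those of the FPKM values alone.

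Most of the catalytic level came from the alpha form. Ppp2ca, which encodes the alpha catalytic subunit, stood at 77.5 FPKM (interval 75.6 to 80.7) in CD8SP cells and 74.6 FPKM (71.9 to 78.1) in CD4SP cells. Its intervals overlapped and its ratio was 1.04. Ppp2cb, the beta catalytic subunit and a close relative in sequence, stood at 15.1 FPKM in CD8SP cells and 11.5 FPKM in CD4SP cells. Its ratio of 1.31 rested on assembled transcripts, which made up 24.9% of its level in CD8SP cells and 0% in CD4SP cells. Its RefSeq transcript alone was at 11.4 FPKM in CD8SP cells and 11.5 FPKM in CD4SP cells. Ppp2ca gave 83.7% of the catalytic FPKM in CD8SP cells and 86.6% in CD4SP cells, so the alpha form led in both lineages. The sources used here do not say how reads common to Ppp2ca and Ppp2cb were shared between them.

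Ppp2ca also had a minor form that both lineages shared. An assembled transcript of 5 exons left out a 210-base exon at chr11:52113120-52113329 and kept the 508-base intron at chr11:52118161-52118668. It stood at 3.65 FPKM in CD8SP cells and 4.55 FPKM in CD4SP cells, which was 4.71% of the gene in CD8SP cells and 6.10% in CD4SP cells. It is named after its values were seen. In CD4SP cells 2 further assembled transcripts began inside the gene, at 5.12 and 1.39 FPKM. The RefSeq transcript carried 95.3% of the gene's level in CD8SP cells and 85.2% in CD4SP cells.

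Among the scaffold genes the alpha form was the more abundant. Ppp2r1a, the alpha scaffold, stood at 30.7 FPKM (28.2 to 31.9) in CD8SP cells and 24.98 FPKM (23.8 to 26.5) in CD4SP cells. Its intervals did not overlap and its ratio was 1.23, below the 2-fold that a call needs. Ppp2r1b, the beta scaffold, stood at 10.2 FPKM (interval 7.07 to 8.18) in CD8SP cells and 10.1 FPKM (9.48 to 10.8) in CD4SP cells, a ratio of 1.01. Its intervals did not overlap and were lower in CD8SP cells, where the FPKM lay above its own interval, so the FPKM and the intervals give different answers. Ppp2r1a gave 75.01% of the scaffold FPKM in CD8SP cells and 71.1% in CD4SP cells. Ppp2r1a was also the member with the most splicing events tested, 24 of 81. For 10 of its introns a spliced and an unspliced form were above 0 in both files. The unspliced form made up 0.847% to 12.2% of each pair in CD8SP cells and 2.84% to 14.8% in CD4SP cells, lower in CD8SP cells for 7 of the 10 introns. Several of these introns lie on the same assembled transcripts.

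The B55 genes were the least abundant group. Ppp2r2a, which encodes the B55 alpha subunit, stood at 3.70 FPKM (2.88 to 3.83) in CD8SP cells and 4.67 FPKM (4.27 to 5.08) in CD4SP cells, the lowest of the members in both. Its log2 ratio was -0.33 and its intervals did not overlap. Over RefSeq transcripts alone it stood at 1.22 FPKM in CD8SP cells and 3.05 FPKM in CD4SP cells, a log2 ratio of -1.25, and was called lower in CD8SP cells. By that scoring 20.6% of 8316 genes were called, 5.46% in this direction. In CD8SP cells 67.0% of its FPKM was on assembled transcripts, against 34.6% in CD4SP cells. Weighting each transcript by the RefSeq exon bases it covers gave 2.94 in CD8SP cells and 4.81 in CD4SP cells, a log2 ratio of -0.69.

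Ppp2r2d, the B55 delta subunit, stood at 10.1 FPKM (9.43 to 11.5) in CD8SP cells and 8.67 FPKM (7.53 to 9.85) in CD4SP cells. Its intervals overlapped, and its ratio was 1.17. It gave 73.2% of the B55 FPKM in CD8SP cells and 65.0% in CD4SP cells. Assembled transcripts carried 42.4% of its level in CD8SP cells and 51.0% in CD4SP cells. For all 6 of its introns with both forms above 0 in both files, the unspliced form was the smaller share in CD8SP cells, with a median of 14.8% in CD8SP cells and 24.2% in CD4SP cells. These introns overlap or share transcripts, so they are not 6 separate measurements.

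The B56 genes had a summed level near that of the catalytic pair. It was 95.6 FPKM in CD8SP cells and 82.05 FPKM in CD4SP cells, and that of the catalytic genes was 92.6 FPKM in CD8SP cells and 86.2 FPKM in CD4SP cells. Ppp2r5a, the B56 alpha subunit, stood at 37.6 FPKM (36.8 to 39.3) in CD8SP cells and 26.0 FPKM (25.2 to 27.4) in CD4SP cells. Its intervals did not overlap, and its log2 ratio of 0.53 was the largest in size among the members, yet 39.8% of all genes tested had a larger one. The ratio stayed above 0 under each of the 5 other scorings tried, between 0.31 and 0.62.

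Ppp2r5c, the B56 gamma subunit, stood at 37.3 FPKM (34.7 to 40.1) in CD8SP cells and 35.3 FPKM (33.0 to 37.6) in CD4SP cells. Its intervals overlapped. Ppp2r5a gave 39.3% of the B56 FPKM in CD8SP cells and 31.7% in CD4SP cells, while Ppp2r5c gave 39.0% in CD8SP cells and 43.0% in CD4SP cells. Ppp2r5a and Ppp2r5c were thus level in CD8SP cells, where their intervals overlapped, and in CD4SP cells Ppp2r5c was the higher with intervals that did not overlap. With exon-based values Ppp2r5a was the higher in both lineages, at 38.2 and 22.3 for Ppp2r5a and Ppp2r5c in CD8SP cells and 26.6 and 21.6 in CD4SP cells.

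Ppp2r5d, the B56 delta subunit, stood at 10.03 FPKM in CD8SP cells and 7.44 FPKM in CD4SP cells, a ratio of 1.35 on its single RefSeq transcript. Both values lay below their own intervals, which ran from 13.2 to 14.5 in CD8SP cells and from 10.1 to 11.4 in CD4SP cells. Ppp2r5e, the B56 epsilon subunit, stood at 10.7 FPKM (9.58 to 11.8) in CD8SP cells and 13.3 FPKM (11.5 to 14.8) in CD4SP cells, with overlapping intervals. Its log2 ratio of -0.32 became 0.06 over RefSeq transcripts alone, and assembled transcripts made up 46.6% of its level in CD8SP cells and 59.0% in CD4SP cells. In CD8SP cells Ppp2r5e, Ppp2r1b, Ppp2r2d and Ppp2r5d all lay between 10.03 and 10.7 FPKM. The interval of Ppp2r5d lay above those of the other 3 although its FPKM was the lowest of the 4, so no order is read from these values.

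**Figure D2:**
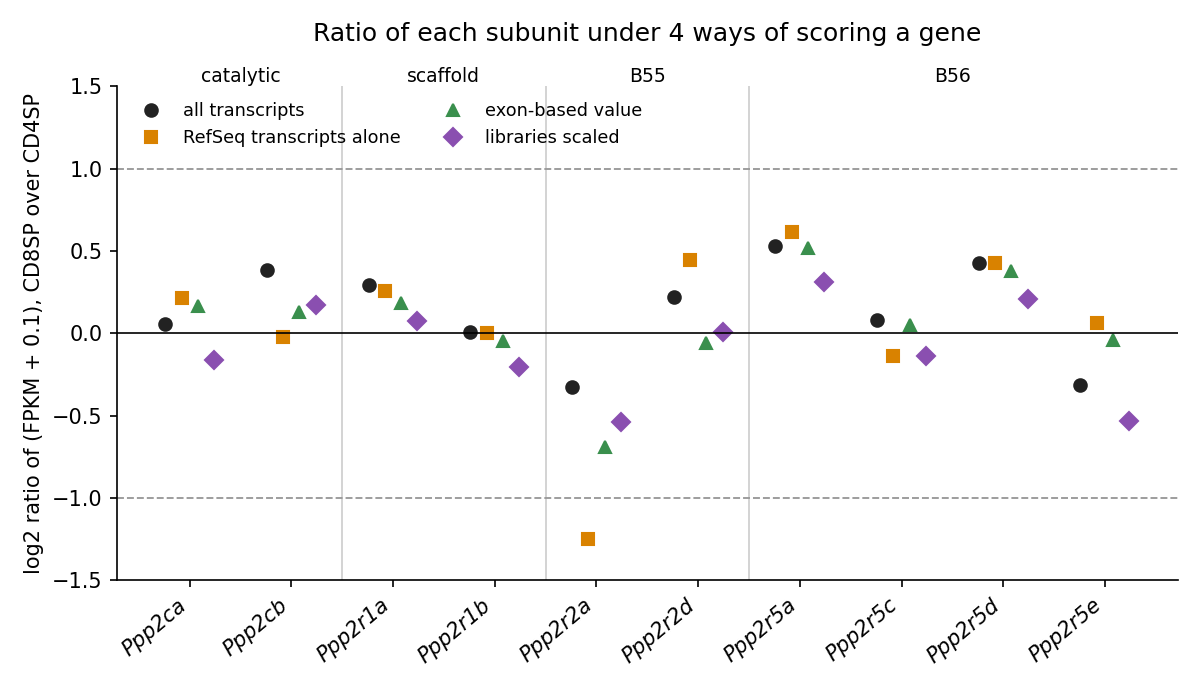
log2 ratio of (FPKM + 0.1), CD8SP over CD4SP, of each subunit (y axis) with all transcripts summed, RefSeq transcripts alone, exon-based values and libraries scaled to a median of 0, with dashed lines at 1 and -1. Ppp2r1a, Ppp2r5a and Ppp2r5d stay above 0 and Ppp2r2a below 0 in all 4, and 1 point, Ppp2r2a over RefSeq transcripts alone at -1.25, passes a dashed line.

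Genes that work with PP2A or resemble it were mostly uncalled too with all transcripts summed. Of 55 listed genes that were measured, 51 reached 1 FPKM in a lineage and 2 were called (3.92%, beside 14.8% of all genes), both higher in CD8SP cells. Their median log2 ratio was 0.18. No gene was called among 6 other PP2A regulatory subunits, 5 assembly and methylation factors, 12 subunits of the related phosphatases PP4 and PP6, 7 other catalytic subunits of the family, 9 STRIPAK partners and 2 Integrator partners. Both called genes were among the 10 inhibitors and their kinase. Anp32e, a member of the family of the PP2A inhibitor Anp32a, stood at 37.3 FPKM in CD8SP cells and 17.6 FPKM in CD4SP cells. Over RefSeq transcripts alone its log2 ratio of 1.08 became -0.035. Mastl, the kinase that turns Arpp19 and Ensa into inhibitors of PP2A-B55, stood at 1.62 FPKM in CD8SP cells and 0.647 FPKM in CD4SP cells. Over RefSeq transcripts alone its log2 ratio was 0.087, and with a pseudocount of 1 it was 0.67. Of its FPKM 57.2% lay on assembled transcripts in CD8SP cells and 0% in CD4SP cells. Both calls were lost when the libraries were scaled to a median log2 ratio of 0, at log2 ratios of 0.86 for Anp32e and 0.999 for Mastl. Set, a PP2A inhibitor, had the next largest ratio among listed genes at 5 FPKM or more, at 31.6 FPKM in CD8SP cells and 16.0 FPKM in CD4SP cells, and was not called. Ppp3ca, a calcineurin catalytic subunit, stood at 22.5 FPKM in CD8SP cells and 12.3 FPKM in CD4SP cells. It was not called, but over RefSeq transcripts alone its log2 ratio of 0.86 became 1.63 with intervals apart. By that scoring other uncalled genes also passed 1 with intervals apart, among them Arpp19 (1.68), Cip2a (1.63), Ppp3cc (1.22) and Ppp1cb (1.02). These were all higher in CD8SP cells and are named after their values were seen. Of all genes 20.6% of 8316 were called by that scoring.

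Splicing of the members was scored as percent spliced in, the share of summed FPKM on transcripts with the longer form, and a difference of 20 points made a call where the forms added up to 1 FPKM or more in each lineage. Of 81 events of the members 11 were called (13.6%), beside 19.2% of 75101 events of all genes. Of these 11 events 10 lacked a form in 1 lineage's file. Where both forms were above 0 in both files, 1 of 24 events was called (4.17%), beside 11.5% of 19803 events. It was an intron of Ppp2r2d at chr7:138873052-138874112, 1061 bases long. Its unspliced form was set only against splicing that ends at that position. The unspliced form made up 50.2% in CD8SP cells (1.43 FPKM unspliced, 1.42 FPKM spliced) and 78.3% in CD4SP cells (2.19 FPKM unspliced, 0.609 FPKM spliced). More splicing used another acceptor site, at 5.83 FPKM in CD8SP cells and 4.62 FPKM in CD4SP cells. Against that form, at chr7:138873052-138874119, the unspliced share was 19.7% in CD8SP cells and 32.2% in CD4SP cells and was not called. At 5 FPKM or more in each lineage 2 of 66 events were called (3.03%), beside 8.65% of 41417. With 10 points as the limit 22 of 81 were called (27.2%), beside 42.4%. Ppp2r5d had no event to test.

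Both annotated events of the members were uncalled, beside 17.2% of 2636 annotated events of all genes. Ppp2r5c exon 13, printed above, was included at 46.4% in CD8SP cells and 35.9% in CD4SP cells. The ranges that the transcripts' intervals allow were 43.0% to 49.6% in CD8SP cells and 33.0% to 38.6% in CD4SP cells and did not overlap. How many annotated events of all genes have ranges that stay apart was not worked out, so nothing is read from this. Over RefSeq transcripts alone its inclusion was 38.8% in CD8SP cells and 35.9% in CD4SP cells. The other event, an acceptor site of the last Ppp2r2a exon, was at 100% in both lineages.

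Ppp2r5c transcripts also differed in which end they used. Transcripts with the proximal end made up 25.2% of its FPKM in CD8SP cells and 50.3% in CD4SP cells, a difference of -25.01 points. The ranges allowed by the intervals, 22.6% to 28.0% in CD8SP cells and 47.0% to 53.5% in CD4SP cells, did not overlap. This share was chosen after seeing the data and scored for Ppp2r5c alone, so no share of all genes stands beside it. In CD4SP cells it includes 3.72 FPKM on a RefSeq transcript with the upstream first exon, listed at 0 in CD8SP cells. Over RefSeq transcripts alone the shares were 31.4% in CD8SP cells and 46.9% in CD4SP cells. The RefSeq transcript with 12 exons and the proximal tail (NM_001081458) stood at 9.42 FPKM in CD8SP cells and 11.7 FPKM in CD4SP cells. An assembled transcript of 7 exons at 2.25 FPKM in CD4SP cells also had the proximal end. The RefSeq transcript with 13 exons and the distal tail (NM_001081457) stood at 12.6 FPKM in CD8SP cells and 11.3 FPKM in CD4SP cells. The one that adds exon 13 (NM_012023) stood at 7.98 FPKM in CD8SP cells and 6.29 FPKM in CD4SP cells. As a spliced exon, exon 13 was thus on 51.3% of distal FPKM in CD8SP cells and 35.9% in CD4SP cells with assembled transcripts counted, and the gap narrowed to 2.97 points without them. In CD8SP cells an assembled transcript at 1.02 FPKM kept the intron before exon 13 and was counted as without it. The inclusion of 46.4% given above leaves out that transcript and the one with the stop exon.

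The first exon of Ppp2r5c gave opposite answers by scoring. Of the FPKM on transcripts with either first exon, those that began at the upstream one made up 19.7% in CD8SP cells and 11.3% in CD4SP cells. In CD8SP cells all of that lay on assembled transcripts that ran to the distal tail. In CD4SP cells it lay on a RefSeq transcript of 14 exons with the proximal tail (NM_001135001), at 3.72 FPKM, which is listed at 0 in CD8SP cells. Over RefSeq transcripts alone the share was therefore 0% in CD8SP cells and 11.3% in CD4SP cells. Short fragments do not span from the first exon to the last, so which first exon goes with which tail is the assembler's estimate.

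The stop exon printed above was on 12.3% of distal FPKM in CD8SP cells, all on 1 assembled transcript of 17 exons at 3.42 FPKM, and on 0% in CD4SP cells. Long reads listed it in both lineages, in 2 isoforms of CD8SP cells and 5 of CD4SP cells.

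**Figure D3:**
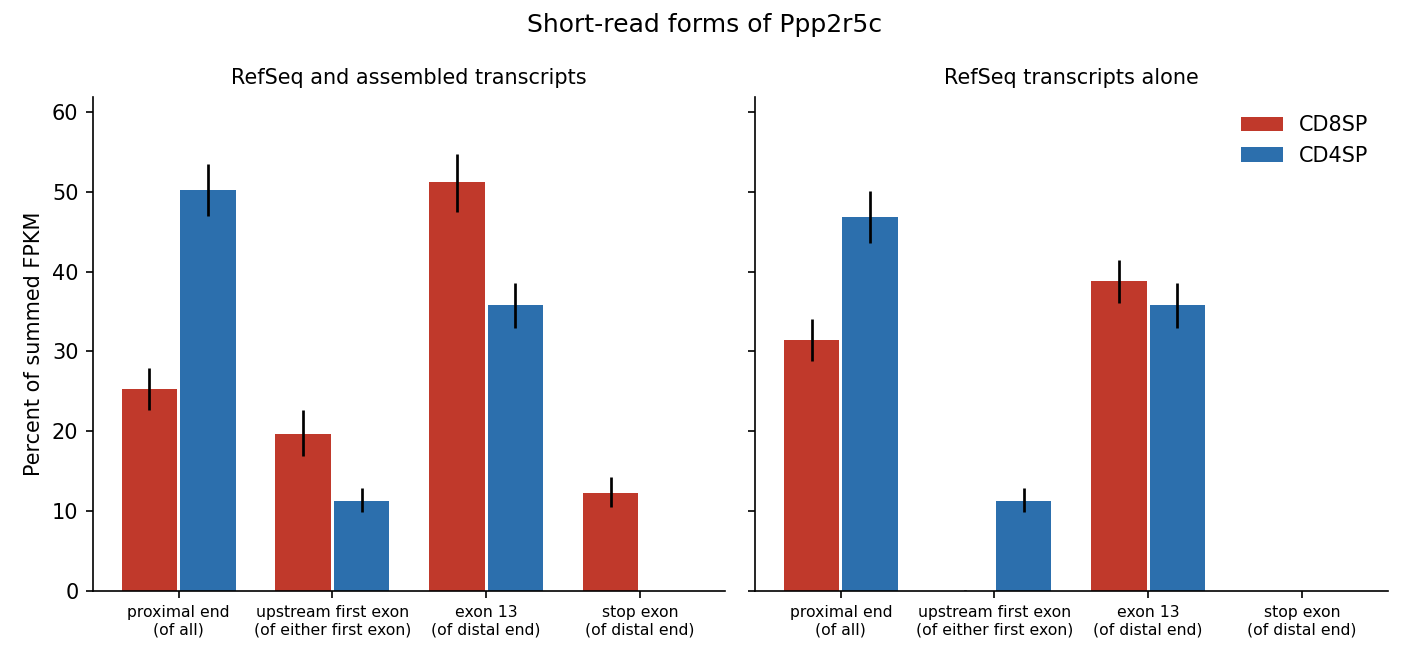
Percent of summed Ppp2r5c FPKM (y axis), CD8SP (red) left of CD4SP (blue), over all transcripts (left panel) and RefSeq transcripts alone (right panel). Bars give the proximal end as a share of all the gene's FPKM and the upstream first exon as a share of transcripts with either first exon. Exon 13 and the stop exon are shares of distal transcripts. Lines give the ranges the deposited intervals allow. The proximal end is at 25.2% in CD8SP cells and 50.3% in CD4SP cells in the left panel, and at 31.4% in CD8SP cells and 46.9% in CD4SP cells in the right, while the order of the lineages for the upstream first exon differs between the panels.

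Long reads gave the members 35 isoforms of 9476 in CD8SP cells and 42 of 8289 in CD4SP cells. Ppp2r5c held 25 of them in CD8SP cells (71.4%) and 33 in CD4SP cells (78.6%), where the median gene with any isoform had 1. By number of isoforms Ppp2r5c took rank 3 among 3602 genes in CD8SP cells and joint rank 2 among 3031 genes in CD4SP cells. The columns for full-length read counts are empty, so the reads behind an isoform are unknown, each isoform counts once and a number of isoforms is not a level. An isoform missing from a table was not listed at the depth reached, and with 1 library per lineage depth and lineage cannot be told apart.

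The other 9 members held 10 isoforms in CD8SP cells and 9 in CD4SP cells, of which 6 in CD8SP cells and 2 in CD4SP cells had more than 1 exon. Full splice matches, isoforms with every intron of an annotated transcript, came from Ppp2ca (1533 bases, 7 exons, flagged for template switching) and Ppp2r5a (2350 bases, 13 exons) in CD8SP cells, and from none of the 9 in CD4SP cells. Ppp2ca had an incomplete match of 1510 bases in CD4SP cells, also flagged for template switching. The scaffold genes had 1 incomplete match each in CD8SP cells, 1604 bases and 11 exons for Ppp2r1a and 1852 bases and 5 exons for Ppp2r1b. Ppp2r2d had 1 incomplete match, 1686 bases and 6 exons, in CD8SP cells. Ppp2r1a, Ppp2r1b, Ppp2r2d and Ppp2r5a had no isoform in CD4SP cells.

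Most isoforms of Ppp2r2a and Ppp2r5e had a single exon. Ppp2r2a had 2 in CD8SP cells, the longest 1754 bases, and 4 in CD4SP cells, the longest 4513 bases. Ppp2r5e had 3 in each lineage, the longest 2793 bases in CD8SP cells and 2191 bases in CD4SP cells. That of 2793 bases was the only isoform of Ppp2r5e with more than 1 exon. It was flagged for template switching and had a non-canonical splice junction. All 6 of those of Ppp2r5e lay before a genomic window with 60% A or more, where the primer can start within a transcript, as did 60.1% of all isoforms in the CD8SP library and 64.05% in the CD4SP library. Ppp2cb had 1 single-exon isoform of 2920 bases, in CD4SP cells, and Ppp2r5d had none in either.

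**Figure D4:**
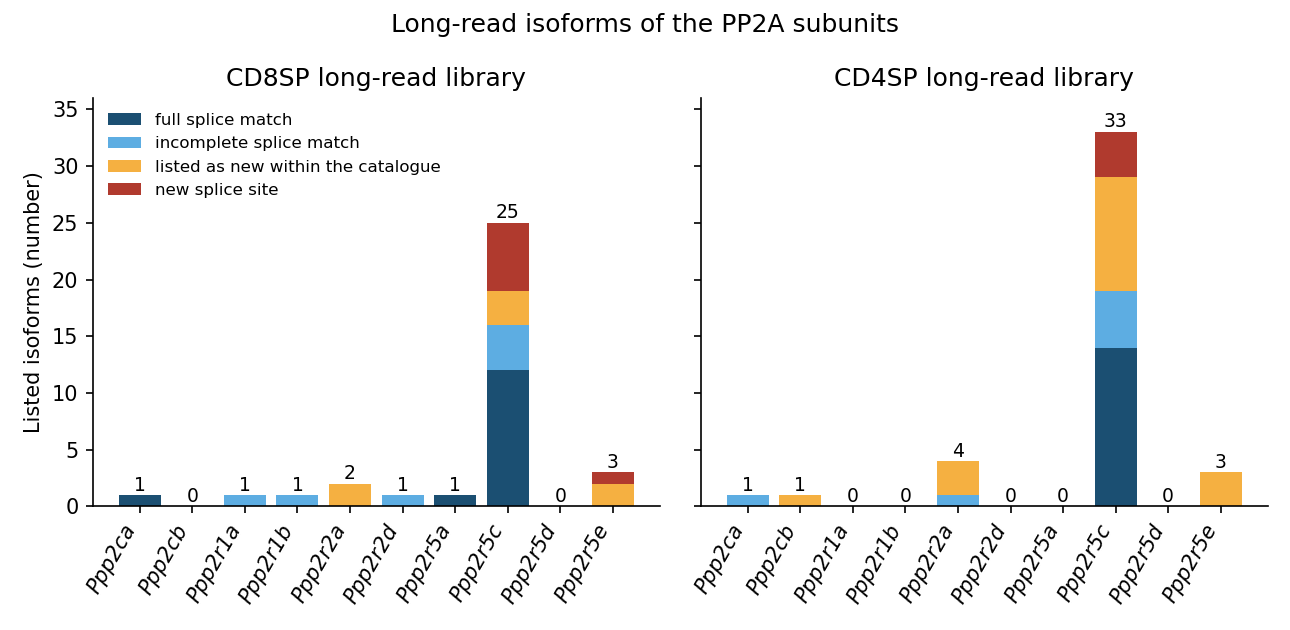
Number of listed long-read isoforms of each PP2A subunit, CD8SP library on the left and CD4SP library on the right, stacked by structural category. Ppp2r5c has 25 isoforms in CD8SP cells (12 full splice matches) and 33 in CD4SP cells (14 full splice matches), and no other subunit has more than 4.

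Of the Ppp2r5c isoforms 12 in CD8SP cells and 14 in CD4SP cells were full splice matches. A further 4 in CD8SP cells and 5 in CD4SP cells were incomplete matches, 3 in CD8SP cells and 10 in CD4SP cells were listed as new within the catalogue, of which 1 in each lineage had a single exon and the others combined known splice sites or kept introns, and 6 in CD8SP cells and 4 in CD4SP cells used a new splice site. The longest that was not a full splice match had 8 exons, with 4584 bases in CD8SP cells and 4595 bases in CD4SP cells. With more than 1 exon, 24 isoforms in CD8SP cells and 32 in CD4SP cells had a predicted reading frame, and every one of them began at the start codon of the downstream first exon, at position 110485859 of chromosome 12. The upstream first exon seen in short reads was on none of these frames.

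Each isoform's exons were worked out from its length, exon number, ends and reading frame, which settled 18 of 24 in CD8SP cells and 28 of 32 in CD4SP cells. The 9 settled structures of CD8SP cells were all among the 13 settled ones of CD4SP cells (69.2% of them). Only combinations of annotated exons could be settled, so isoforms with a new splice site stand outside this count. Over all Ppp2r5c isoforms with a predicted frame, settled or not, each lineage had 14 distinct frame lengths. Of these 9 were shared (64.3% in each lineage), so each lineage also listed frames that the other did not. Of isoforms with a known tail, 4 of 14 in CD8SP cells (28.6%) and 5 of 23 in CD4SP cells (21.7%) had the proximal one. These are counts of structures and do not measure how much of each there was.

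Distal isoforms without exon 13 and otherwise complete, with a frame of 485 codons, numbered 4 in CD8SP cells and 6 in CD4SP cells. With exon 13 the frame was 524 codons, and 4 such isoforms were listed in each lineage. The proximal frame was 452 codons, in 3 isoforms of CD8SP cells and 2 of CD4SP cells. Isoforms of 1 structure differed in where they ended. Joining ends within 10 bases, the settled isoforms had 12 distinct 3′ ends in CD8SP cells and 14 in CD4SP cells. Of these 8 were shared (66.7% of those in CD8SP cells and 57.1% of those in CD4SP cells). The shared number depends on that limit: ends at 110558552 in CD8SP cells and 110558563 in CD4SP cells, for example, count as different. Of all Ppp2r5c isoforms 6 in each lineage lay before a window with 60% A or more, among them several that end inside introns. Priming within a transcript was not tested for these ends.

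Isoforms with the stop exon had frames of 496 codons with exon 13 and 457 without it. The classification predicted nonsense-mediated decay, the removal of messages with an early stop, for these, for isoforms that kept intron 10 up to the proximal tail (384 codons), and for a few that were not settled. In all it did so for 4 of 24 multi-exon Ppp2r5c isoforms in CD8SP cells and 9 of 32 in CD4SP cells. Of all coding multi-exon isoforms it did so for 17.9% in the CD8SP library and 20.9% in the CD4SP library.

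A few in-frame skips of Ppp2r5c were found among the 28 settled isoforms of CD4SP cells and not among the 18 settled ones of CD8SP cells, where 6 more were not settled, as were 4 in CD4SP cells. Exon 6, printed above, was left out of 3 isoforms, with 432 codons on the proximal tail and 465 codons on the distal tail in 2 isoforms, each 20 codons short of the full form. Exon 9, 171 bases at chr12:110561298-110561468, was left out of 1 isoform with exon 13 and 467 codons, 57 codons short. No short-read transcript of Ppp2r5c in either lineage left out exon 6 while spanning it, so the exon 6 skip was not seen in that assay.

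**Figure D5:**
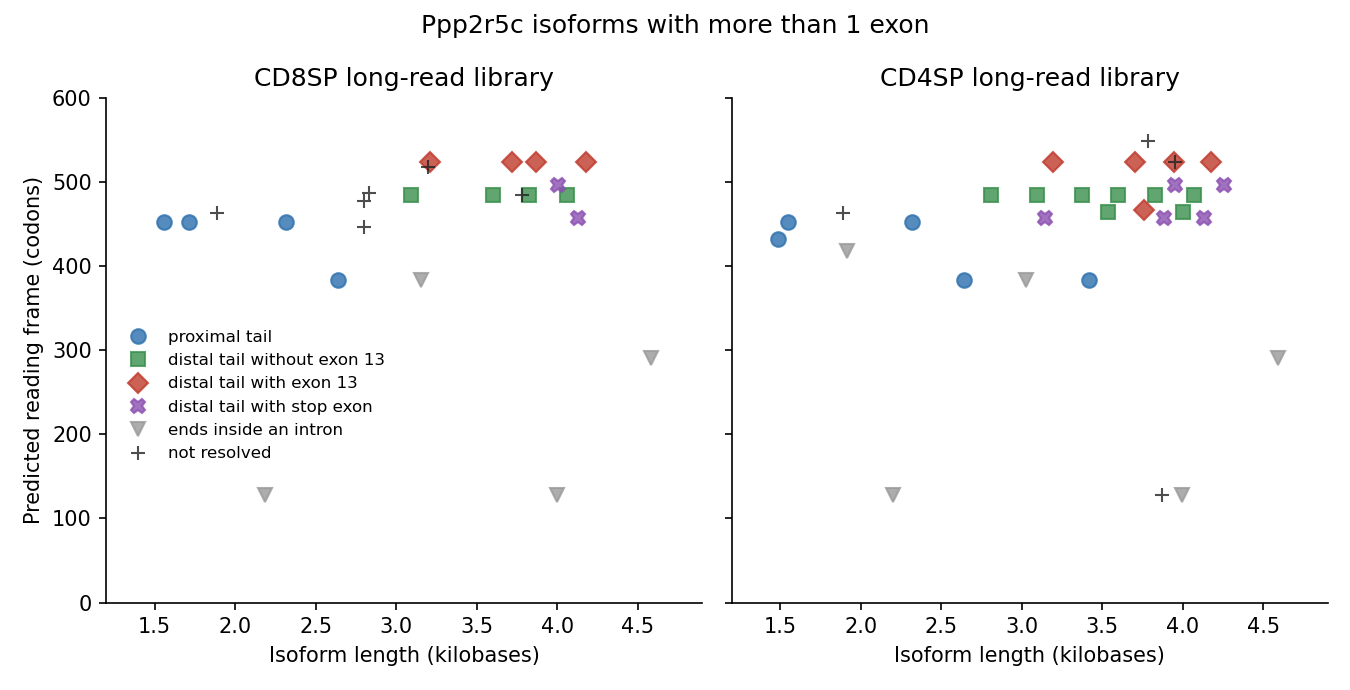
Predicted reading frame in codons (y axis) against length in kilobases (x axis) of the Ppp2r5c isoforms with more than 1 exon, CD8SP library on the left (24 isoforms) and CD4SP library on the right (32 isoforms), marked by tail. Isoforms line up at frames of 452, 485 and 524 codons over a wide range of lengths in both libraries, and those that end inside an intron lie lower.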

How the data were processed

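The authors deposited, for each lineage, a Cufflinks transcript file that holds FPKM with an interval for RefSeq and assembled transcripts, per the file headers, with the lanes pooled. They also deposited a table of collapsed long-read isoforms for each lineage, which gives, per the file headers, length, exons, category, reading frame and, as a percent, how much of the genome just past the 3′ end is A. Build GRCm38 is named in the submitters' processing notes, with Cufflinks 2.1.1, TopHat2 2.0.14, RSEM 1.3.1, GSNAP, Trimmomatic and FastQC, none with its role. A table of TPM over chained isoforms was not used here, since its identifiers are not paired with genes.

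RefSeq transcripts were matched to symbols by accession, 29447 of 30589. FPKM and intervals were summed per gene. Assembled transcripts with introns of more than 1 gene were dropped, which touched Ppp2r1b and Ppp2r5d. For Ppp2r1b they stood at 0.832 and 0.422 FPKM and were in CD4SP cells only, so its ratio and the sign of its log2 ratio leave them out. For Ppp2r5d they were in both lineages, at no more than 0.379 FPKM each. The pseudocount was 0.1. Exon-based values used transcripts of at least 200 bases. Splicing shares came from summed FPKM, their ranges from the interval ends, and the event code was tested on simulated transcripts. Named genes are the 10 members, the called genes of the listed partners and the 3 with the largest ratio at 5 FPKM or more. Partners named for their RefSeq transcripts alone were added after their values were seen. Named events are the annotated ones and called ones with both forms in both files, and named isoforms are full splice matches and the longest other one. The members and lists were chosen with earlier results of these data known. The alternatives were other pseudocounts, RefSeq transcripts alone, exon-based values, a scaling, other filters and flags on isoforms. Python 3.11.15, numpy 2.4.6, pandas 2.3.3 and matplotlib 3.10.9 were used.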

Additional observations from a re-analysis of the deposited data

How the results depend on the processing

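No paired analysis was possible because the 4 lanes of a lineage are pooled in 1 value, and no replicate could be left out. The members' count of 0 called became 1 over RefSeq transcripts alone (Ppp2r2a) and was 0 under both other pseudocounts, exon-based values and scaling. Of 50 log2 ratios of members under these alternatives 39 stayed within a set range or very near the main ratio. That range was the one their intervals allow, widened where needed to reach the main ratio. A further 10 moved beyond it and 1 was called. For Ppp2r1b the main ratio lay above what its intervals allow, so the widened range was used there. Of the members 4 kept their sign throughout (Ppp2r1a, Ppp2r2a, Ppp2r5a and Ppp2r5d). Anp32e went to -0.035 and Ppp3ca to 1.63 over RefSeq transcripts alone.

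Over all genes 1419 were called, 2317 with no filter on low values, 698 at 5 FPKM or more and, added after seeing the data, 877 with a pseudocount of 1. Scaling, also added there, turned the split of 961 higher and 458 lower in CD8SP cells into 648 and 639. Of the members' events 11 were called, 2 at 5 FPKM or more, 19 with no filter, 22 at 10 points and 1 with both forms in both files. Without Ppp2r5c, a choice made after seeing the data, 10 long-read isoforms were left in CD8SP cells and 9 in CD4SP cells.

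The Ppp2r5c shares by end, first exon, exon 13 and stop exon, with all transcripts and over RefSeq transcripts alone, were also chosen after seeing the data. Over RefSeq transcripts alone the difference, CD8SP minus CD4SP, became -15.4 points for the proximal end and -11.3 points for the upstream first exon (8.42 points with assembled transcripts). It became 2.97 points for exon 13 and 0 points for the stop exon. The cause of these shifts was not tested. The reads behind the long-read isoforms are unknown.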

Other observations

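Isoforms on the strand opposite to a member were also listed in the long-read tables, where they carry no role in the comparisons above. Ppp2r2a had 2 of them in CD8SP cells and 2 in CD4SP cells, Ppp2cb had 1 in CD8SP cells and 0 in CD4SP cells, and Ppp2r5a and Ppp2r5c each had 0 in CD8SP cells and 1 in CD4SP cells.

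A new-site isoform of Ppp2r5c with 13 exons and a predicted frame of 463 codons was listed in both lineages, with 1889 bases in CD8SP cells and 1892 bases in CD4SP cells, and its frame ended at the same base of chromosome 12, 110571263, beyond the stop codon of the proximal tail. Its exons were not settled.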
